A study of Mus musculus with 6 samples.

Results

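The 9 genes described here encode signal transducers of the Janus kinase and Stat pathway and the inhibitors that the pathway induces. They are the Stat genes *Stat2*, *Stat3*, *Stat5a*, *Stat5b* and *Stat6* and the Socs family genes *Socs1*, *Socs2*, *Socs3* and *Cish*. They were chosen by name, and all 9 were found among the 23420 genes counted in both the uterine luminal layer and blastocysts of pregnant mice. *Lif* (leukemia inhibitory factor) was targeted in the uterine epithelium with *Ltf*-driven Cre (*Lif* eKO), a design that leaves the gene in other uterine cells. The luminal layer was from PBS-treated Lif-floxed/floxed females (control), PBS-treated Lif-floxed/floxed Ltf-Cre/+ females (eKO) and Lif-floxed/floxed Ltf-Cre/+ females given recombinant Lif (rLif). Control females thus carried the same floxed alleles as eKO females and differed by the absence of Cre. Blastocysts were flushed from uteri of the same 3 kinds, and all of them had the genotype Lif-floxed/+, so that the groups of blastocysts differed by the mother and not by their own labelled genotype. Tissue was taken at 8 pm on day 4 of pregnancy, and rLif was injected at 10 am and again at 6 pm, 20 µg per head each time, the last dose 2 h before collection. Each group was 1 library made from pooled material, and the labels give no age for the mice. The spread between animals could therefore not be estimated, no p-value is given, and every interval covers counting error only.

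Cytokines of the Lif and interleukin-6 family bind receptors whose associated Janus kinases phosphorylate Stat proteins, which then enter the nucleus and activate genes. Among those genes are *Socs3*, *Socs1*, *Socs2* and *Cish*, whose proteins bind receptors or kinases and end the signal, so that their transcripts are widely used as readouts of recent Stat activity. In the mouse uterus, Lif from the glands acts on the luminal epithelium around the time of embryo attachment, where Stat3 is its main transducer.

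The genes lie on 4 chromosomes (GRCm38/mm10). *Stat5b* (chromosome 11, 100780731 to 100850585, minus strand), *Stat5a* (100859351 to 100885169, plus strand) and *Stat3* (100886810 to 100939511, minus strand) are neighbours, with gaps of 8765 and 1640 bases. *Socs3* is on the same chromosome (117966087 to 117969366, minus strand), *Socs2* (95411490 to 95416857, minus strand), *Stat6* (127642986 to 127660987, plus strand) and *Stat2* (128270576 to 128292849, plus strand) are on chromosome 10, *Cish* (107296689 to 107301961, plus strand) is on chromosome 9 and *Socs1* (10783809 to 10785536, minus strand) is on chromosome 16. *Stat5a* and *Stat5b* transcripts have 608 stretches of 50 bases in common, 8.21% of those of *Stat5a* and 11.0% of those of *Stat5b*, and an exon of *Stat6* overlaps *Nab2*. Counts of these 3 genes are uncertain to that extent, because the settings for shared reads and for strand were not given in the sources used here.

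Of the 9 genes, 8 had promoter windows in the RefSeq table (GRCm38.p6) and *Socs2* was not in it. The 250 bases before the annotated start are shown for *Socs3*, *Stat3* and *Cish*, which differed by more than 2-fold beyond counting error between luminal libraries, and for *Socs1*, which had the highest ratio in blastocysts from rLif-treated mothers. The windows, on the strand of each gene and 5′ to 3′, were chr11:117969367-117969616 (minus strand) for *Socs3*, chr11:100939541-100939790 (minus strand) for *Stat3*, chr9:107296409-107296658 (plus strand) for *Cish* and chr16:10785537-10785786 (minus strand) for *Socs1*. Capitals mark matches on either strand to TTCNNNGAA, the spacing bound by most Stat dimers, to the same half-sites with 4 bases between them, the spacing preferred by Stat6, or to GAAA repeated after 2 bases of any kind, the core of the interferon-stimulated element bound by the complex that contains Stat2.
Socs3: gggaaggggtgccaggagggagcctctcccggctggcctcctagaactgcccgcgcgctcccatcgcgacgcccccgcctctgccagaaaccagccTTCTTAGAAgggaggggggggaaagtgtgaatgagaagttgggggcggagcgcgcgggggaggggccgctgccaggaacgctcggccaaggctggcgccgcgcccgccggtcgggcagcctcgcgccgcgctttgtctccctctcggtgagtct
Stat3: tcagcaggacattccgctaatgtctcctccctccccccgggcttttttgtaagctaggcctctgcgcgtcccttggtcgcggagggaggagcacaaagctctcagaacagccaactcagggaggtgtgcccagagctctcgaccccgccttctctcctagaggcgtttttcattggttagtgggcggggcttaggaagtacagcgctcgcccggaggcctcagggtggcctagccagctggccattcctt
Cish: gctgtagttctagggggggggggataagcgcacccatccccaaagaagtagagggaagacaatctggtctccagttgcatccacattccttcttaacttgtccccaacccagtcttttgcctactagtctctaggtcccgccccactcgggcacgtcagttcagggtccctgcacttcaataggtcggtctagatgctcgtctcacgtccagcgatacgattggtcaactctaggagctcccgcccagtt
Socs1: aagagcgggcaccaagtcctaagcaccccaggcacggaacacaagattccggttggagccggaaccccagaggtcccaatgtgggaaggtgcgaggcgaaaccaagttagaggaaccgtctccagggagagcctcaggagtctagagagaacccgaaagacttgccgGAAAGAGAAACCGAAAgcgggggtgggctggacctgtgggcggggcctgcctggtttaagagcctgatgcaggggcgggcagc

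The *Socs3* window held 1 match to TTCNNNGAA, TTCTTAGAA, at bases -154 to -146 from the start. A match to these letters occurred in 7.02% of all 32851 windows of the same length. The *Socs1* window held 2 overlapping matches to the interferon element, at -83 to -74 and -77 to -68, and 0.180% of all windows held 2 or more matches, overlapping or not (2.98% held at least 1). The window of *Stat2*, itself part of the interferon pathway, held 1 match to the interferon element (-222 to -213) and, beside it and without overlap, 1 to the Stat6 spacing (-210 to -201), which 5.85% of windows held. No match to the 3 motifs lay in the windows of *Stat3*, *Cish*, *Stat6*, *Stat5a* or *Stat5b*, the last pair with 2 windows each. A match is a description of letters and does not show that a factor binds there.

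Total counts ranged from 18996158 to 28460465 per library. Among the luminal libraries, *Lif* had 0 counts in the one labelled as control, 28 in that labelled as eKO and 0 in that labelled as rLif-treated eKO. By the labels alone, *Lif* counts would be expected in the control-labelled library rather than the eKO-labelled one. The study places *Lif* in the glands before attachment, however, and the eKO design leaves the gene in other uterine cells. These few luminal counts therefore cannot check the labels. The luminal libraries are called control-labelled, eKO-labelled and rLif-labelled, and comparisons between them (such as eKO against control) are named by these labels. All 10 epithelial markers were present in the luminal libraries (summed level 10142 to 12687 CPM, counts scaled to a common library size). Of the 7 inner cell mass markers listed, *Pou5f1*, *Nanog*, *Fgf4* and *Zfp42* were at 0 in all of them. In the control-labelled, eKO-labelled and rLif-labelled libraries, *Klf2* had 852, 484 and 266 counts, *Gdf3* 53, 74 and 28, and *Sox2* 8, 19 and 0. All 7 were present in every blastocyst library. The uterine epithelial marker *Wnt7a* was at 0 there, while the other 9 epithelial markers were counted (summed level 6617 to 7205 CPM). In such bulk samples, fewer cells of a type and less RNA per cell cannot be told apart.

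Levels were compared between genes as RPKM, counts divided by exon length in kilobases and by library size, the sizes scaled across the 6 libraries. In the control-labelled luminal library, the highest level was that of *Socs2* (70.0 RPKM), followed by *Stat3* (53.4), *Socs3* (22.6), *Socs1* (12.9), *Cish* (11.2), *Stat6* (8.41), *Stat2* (5.63), *Stat5b* (2.38) and *Stat5a* (1.07). All neighbours in this order had separate exact Poisson 95% intervals except *Socs1* and *Cish*. In the eKO-labelled library the order was *Stat3* (26.2), *Socs2* (22.1), *Cish* (17.2), *Socs1* (14.1), *Stat6* (9.78), *Stat2* (5.52), *Stat5b* (3.19), *Stat5a* (2.50) and *Socs3* (2.05), and the last pair overlapped. *Socs3* thus went from the third place to the last among the 9 genes. In the rLif-labelled library it was again in the third place, with *Socs2* at 132 RPKM, *Stat3* at 69.7, *Socs3* at 62.2 and *Cish* at 25.3, and the others at 14.0 or less.

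**Figure D1:**
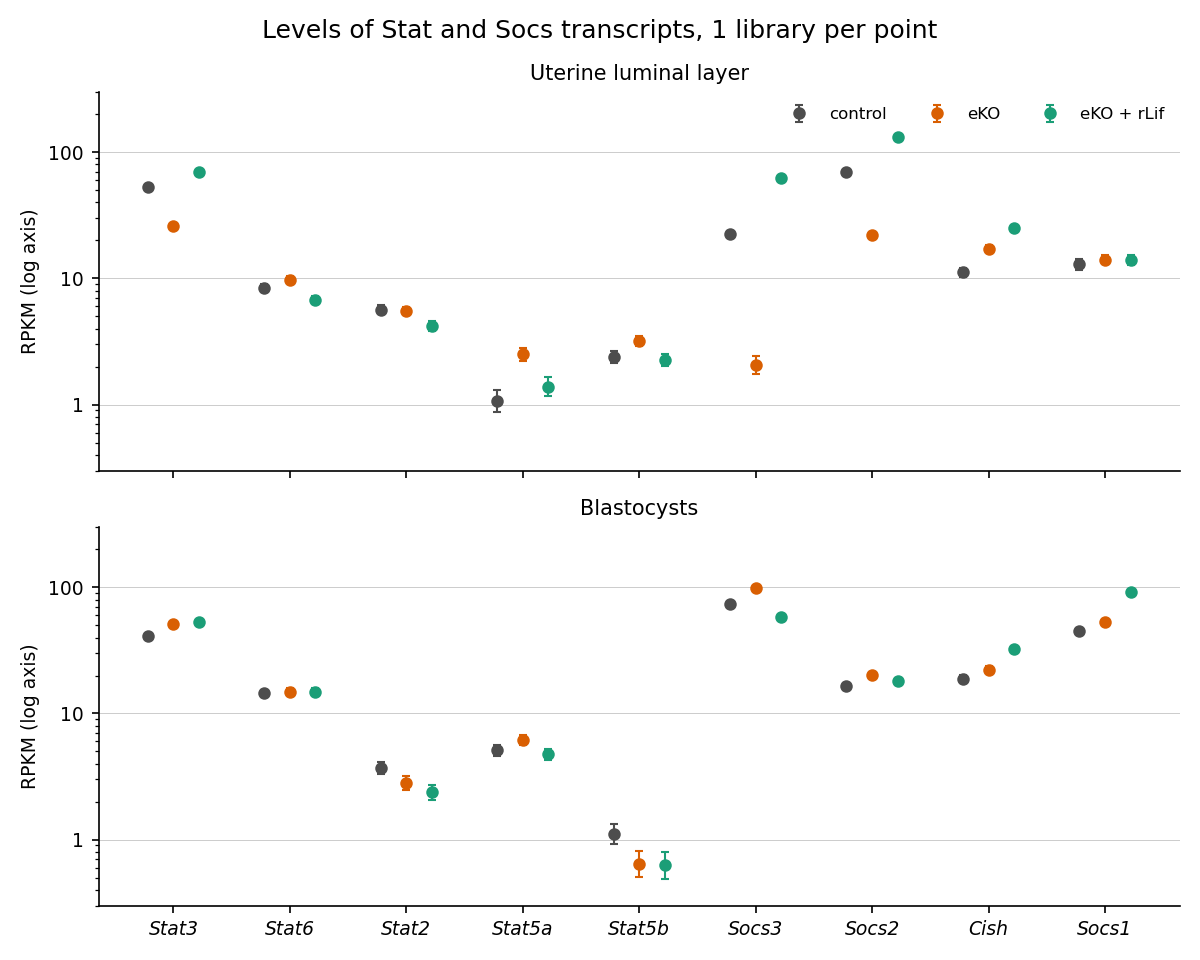
Level of each gene in RPKM on a log axis, with 1 point per library and bars for exact Poisson 95% intervals (counting error only, often smaller than the point), luminal layer above and blastocysts below, colored by labelled group. In the luminal layer *Socs3* lay at 22.6, 2.05 and 62.2 RPKM in the control-labelled, eKO-labelled and rLif-labelled libraries, while in blastocysts it stayed between 58.2 and 99.1 RPKM.

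In blastocysts the order was led by the inhibitors. Control blastocysts had *Socs3* (73.5 RPKM), *Socs1* (45.4), *Stat3* (41.0), *Cish* (18.9), *Socs2* (16.4), *Stat6* (14.5), *Stat5a* (5.12), *Stat2* (3.70) and *Stat5b* (1.11), all with separate intervals. In blastocysts from eKO mothers the order of the genes was the same, but the intervals of *Socs1* (53.2) and *Stat3* (51.4), and those of *Cish* (22.1) and *Socs2* (20.3), overlapped. In blastocysts from rLif-treated eKO mothers *Socs1* (91.2) stood above *Socs3* (58.2) and *Stat3* (53.0), and the remaining order was unchanged down to *Stat5b* (0.628).

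For each pair of libraries, the ratio of counts was taken after scaling, with its exact Clopper-Pearson 95% interval. A gene was called where that whole interval lay beyond a log2 ratio of 1, which is a 2-fold difference. Since 1 library stood for each group, a call describes 2 libraries and not the conditions. In the luminal layer, 2 of the 9 genes were called between the eKO-labelled and control-labelled libraries, *Socs3* and *Socs2*, both lower. Of all 15694 genes compared, 17.2% were called in this comparison, 8.08% higher and 9.15% lower. Between the rLif-labelled and eKO-labelled libraries, 3 genes were called, *Socs3*, *Socs2* and *Stat3*, all higher, against 15.6% of all genes (7.88% higher and 7.77% lower). Between the rLif-labelled and control-labelled libraries, 2 genes were called, *Socs3* and *Cish*, both higher, against 9.16% of all genes (4.12% higher and 5.04% lower). The median log2 ratio over the 9 genes was 0.12, 0.01 and 0.39 in the 3 comparisons, beside 0.00, -0.01 and 0.01 over all genes. The 9 genes went both ways, with intervals of 4, 4 and 5 of them above 0 and of 3, 4 and 2 below it. The 3 comparisons share libraries and are not independent of each other.

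*Stat3*, the transducer of Lif, had 5758 control-labelled, 3213 eKO-labelled and 7823 rLif-labelled luminal counts. The eKO-labelled library was the lowest, and the rLif-labelled one was the highest. The log2 ratio of the eKO-labelled library to the control-labelled one was -1.03, just outside a call, because its interval (-1.09 to -0.97) included the limit. With total counts in place of scaled library sizes this ratio was -1.10 and was called. *Stat3* was 2.69-fold higher (2.58 to 2.80) in the rLif-labelled library than in the eKO-labelled one, and 1.32-fold higher (1.27 to 1.36) than in the control-labelled one, which was not called.

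*Socs3*, the inhibitor that binds the gp130 receptor subunit, had 1482, 153 and 4242 luminal counts in the control-labelled, eKO-labelled and rLif-labelled libraries. These were the widest differences among the 9 genes. *Socs3* was 11.0-fold lower (9.32 to 13.1) in the eKO-labelled library than in the control-labelled one, a log2 ratio of -3.46 (-3.71 to -3.22). In the rLif-labelled library it was 30.6-fold higher (26.0 to 36.2) than in the eKO-labelled one and 2.78-fold higher (2.62 to 2.95) than in the control-labelled one. The rLif-labelled library was thus above both others. *Socs3* counts per 100 *Stat3* counts were 25.7, 4.76 and 54.2, so that *Socs3* varied more than *Stat3* between these libraries.

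*Socs2*, an inhibitor best known for restraining growth hormone signaling, had 4539, 1627 and 8901 luminal counts. It was ordered across the 3 libraries as *Socs3* was, over a narrower range. *Socs2* was 3.17-fold lower in the eKO-labelled library than in the control-labelled one, a log2 ratio of -1.67 (-1.75 to -1.58). It was 6.03-fold higher (5.72 to 6.37) in the rLif-labelled library than in the eKO-labelled one. Against the control-labelled library, the rLif-labelled one was higher by a log2 ratio of 0.93 (0.88 to 0.98), just outside a call. When an exact test of edgeR with an assumed dispersion of 0.1 replaced the interval, *Socs3* kept its calls against the eKO-labelled library, *Socs2* lost that of eKO against control, and *Stat3* lost its call. With that test none of the 9 genes was called between the rLif-labelled and control-labelled libraries. The share of all genes called by that test was not computed.

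Some gland markers moved with *Socs3* and *Socs2*. The 6 gland markers counted summed to 113, 6.77 and 160 CPM in the control-labelled, eKO-labelled and rLif-labelled libraries, with the defining marker *Foxa2* at 3, 0 and 10 counts. Most of this sum was *Lgr5*, with 2505, 25 and 3494 counts, while *Prss29* had 123, 111 and 315. The part of gland cells in the result was not tested. The 9 immune markers counted summed to 1197, 1101 and 1213 CPM in the same libraries, and no defining immune marker was at 0.

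*Cish*, a Socs family inhibitor and a classical target of Stat5, had 582, 1019 and 1368 luminal counts. It was lowest in the control-labelled library, unlike *Socs3* and *Socs2*, which were lowest in the eKO-labelled one. Its log2 ratio was 0.62 (0.47 to 0.77) for eKO against control and 0.57 (0.45 to 0.68) for eKO with rLif against eKO, neither called. Both steps added up to 2.28-fold (2.07 to 2.52) between the rLif-labelled and control-labelled libraries, which was called. This call was lost with total counts, where the log2 ratio was 1.01. The summed level of the 6 endothelium markers had the same order as *Cish* (50.6, 72.5 and 95.8 CPM, none at 0). So had that of the 6 markers listed for primitive endoderm (1258, 1893 and 2752 CPM, with *Gata4* at 0 in all). Most of the second sum was *Sox17* (27110, 48998 and 65587 counts). Single markers did not all share this order. *Tek* did (124, 198 and 897 counts), while *Pecam1* (332, 305 and 275) and *Sox7* (1798, 1375 and 1958) did not. The part of either list in the result was not tested. *Socs1*, which acts directly on Janus kinases and is best known in interferon signaling, had 416, 515 and 470 luminal counts. Its libraries overlapped within counting error, and its log2 ratios were 0.12 (-0.07 to 0.31), 0.01 (-0.17 to 0.19) and 0.13 (-0.06 to 0.33) for eKO against control, eKO with rLif against eKO, and eKO with rLif against control.

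*Stat5a* and *Stat5b*, which transduce prolactin and growth hormone signals, were highest in the library where *Stat3* was lowest. *Stat5a* had 100, 266 and 135 luminal counts, and *Stat5b* had 311, 474 and 308. The ratio of the eKO-labelled to the control-labelled library was 2.34-fold (1.85 to 2.97) for *Stat5a*, just outside a call, and 1.34-fold (1.16 to 1.55) for *Stat5b*. The log2 ratio of the rLif-labelled to the eKO-labelled library was -0.84 (-1.15 to -0.53) for *Stat5a* and -0.48 (-0.69 to -0.27) for *Stat5b*, not called. *Stat6*, the transducer of interleukin-4 and interleukin-13, had 770, 1017 and 641 counts and was likewise highest in the eKO-labelled library, with log2 ratios of 0.22 (0.08 to 0.35), -0.52 (-0.67 to -0.38) and -0.31 (-0.46 to -0.16) in the 3 comparisons. *Stat2*, which transduces type I interferon signals, had 595, 663 and 460 counts, and its log2 ratios were -0.03 (-0.19 to 0.13), -0.39 (-0.56 to -0.21) and -0.42 (-0.59 to -0.24). The 10 stroma markers also had their highest sum in the eKO-labelled library (848, 1285 and 885 CPM, none at 0), as did the 10 epithelial markers (11036, 12687 and 10142 CPM, none at 0), and their part in the result was not tested.

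**Figure D2:**
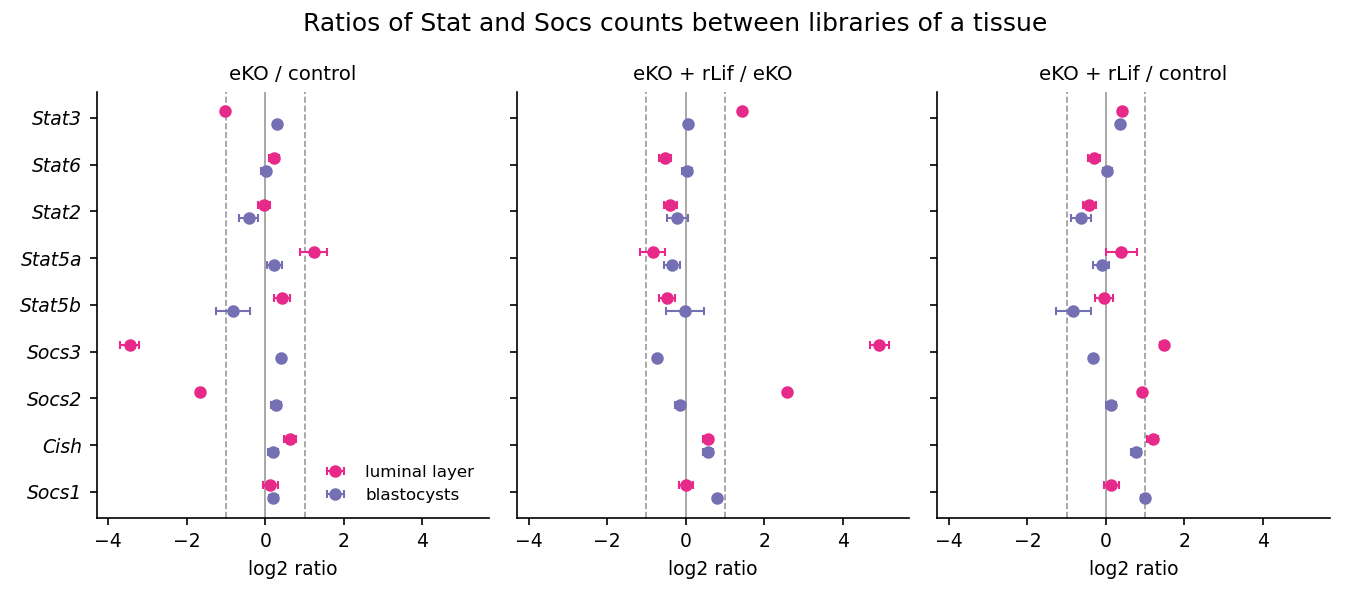
Log2 ratios of scaled counts between libraries of the same tissue (horizontal axis), with exact Clopper-Pearson 95% intervals that cover counting error only. Dashed lines stand at log2 ratios of -1 and 1, the limits for a call, and *Socs3* and *Socs2* of the luminal layer lie farthest from 0, at -3.46 and -1.67 for eKO against control and 4.93 and 2.59 for eKO with rLif against eKO.

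In blastocysts, none of the 9 genes was called in any of the 3 comparisons. The shares of all 14873 genes called were 3.15% for eKO against control (1.29% higher and 1.86% lower), 3.75% for eKO with rLif against eKO (0.914% higher and 2.83% lower) and 4.94% for eKO with rLif against control (0.948% higher and 3.99% lower). The exact test of edgeR with an assumed dispersion of 0.1 also gave 0 calls among the 9 genes, and the share of all genes under it was not computed. Beyond counting error, however, 8 of the 9 genes had intervals that excluded a ratio of 1 for eKO against control, 6 above and 2 below, as did 44.8% of all genes.

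*Socs1* had 1223 counts in control blastocysts, 1437 in blastocysts from eKO mothers and 2500 in those from rLif-treated eKO mothers. It was highest in the last library, in contrast with its flat level in the luminal layer. The ratio of the rLif to the control library was 2.00-fold (1.87 to 2.15), just outside a call, and that to the eKO library was 1.75-fold (1.64 to 1.87). *Cish* had 823, 965 and 1428 counts and was ordered in the same way, at 1.70-fold (1.56 to 1.86) for eKO with rLif against control. *Cish* differed between the libraries with and without rLif by a log2 ratio of 0.57 (0.45 to 0.69) in blastocysts. The summed level of the 7 inner cell mass markers had the same order as *Socs1* and *Cish* (1104, 1154 and 1401 CPM, none at 0). That of the 6 endothelium markers did too (66.9, 68.4 and 91.0 CPM, 4 above 0 in each library and *Emcn* at 0 in all). Most of the latter sum was *Pecam1* (1222, 1306 and 1807 counts). Single markers did not all share this order. *Pou5f1* did (5810, 6172 and 8033 counts), while *Nanog* (2281, 2094 and 3512) and *Cdh5* (72, 47 and 24) did not. The part of either list in the result was not tested.

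*Socs3* had 4031, 5440 and 3248 counts in the control, eKO and eKO with rLif blastocyst libraries. It was highest in the eKO library and lowest in the rLif library, so that its order was opposite to that in the luminal layer. Its log2 ratio was 0.40 (0.34 to 0.46) for eKO against control, -0.74 (-0.80 to -0.67) for eKO with rLif against eKO and -0.34 (-0.41 to -0.27) for eKO with rLif against control. *Socs2* had 893, 1102 and 994 counts, with log2 ratios of 0.27 (0.14 to 0.40), -0.14 (-0.27 to -0.02) and 0.13 (-0.01 to 0.26). The 9 immune markers counted summed to 77.0, 133 and 28.9 CPM in the control, eKO and eKO with rLif blastocyst libraries, the order of *Socs3*. Over a narrower range, the sums of the epithelial (6766, 7205 and 6617 CPM, *Wnt7a* at 0 in all) and primitive endoderm markers (1380, 1508 and 1359 CPM, none at 0) had that order too. All 9 immune markers were above 0 in each library, and most of their sum was *Lyz2* (976, 2128 and 289 counts). Single markers of the 3 lists did not all share this order. Among those that did not were *Cd74* (286, 175 and 131 counts), *Epcam* (22316, 23563 and 27388) and *Gata6* (3454, 3547 and 5388). The part of these lists in the result was not tested.

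Among the Stat genes of blastocysts, *Stat3* had 3699, 4651 and 4870 counts and was lowest in control, 1.29-fold (1.24 to 1.35) below the rLif library. *Stat6* was nearly level, with 1108, 1145 and 1161 counts and intervals that included 0 in all 3 comparisons. *Stat5a* had 401, 482 and 378 counts, with log2 ratios of 0.23 (0.04 to 0.42), -0.34 (-0.54 to -0.15) and -0.11 (-0.32 to 0.09). *Stat5b* was the scarcest of the 9 genes in blastocysts, with 122, 71 and 70 counts, and its low depth widened the intervals. Its log2 ratio was -0.82 (-1.26 to -0.38) for eKO against control and -0.83 (-1.27 to -0.39) for eKO with rLif against control. *Stat2* had 327, 251 and 215 counts, and its log2 ratio was -0.42 (-0.66 to -0.18) for eKO against control and -0.63 (-0.89 to -0.38) for eKO with rLif against control.

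The make-up of the 5 Stat genes and of the 4 Socs family genes was compared as shares of the counts of each set, which do not depend on the scaling of libraries. Other family members, such as *Stat4* and *Socs4* to *Socs7*, were not part of these totals. *Stat3* made up 76.4%, 57.0% and 83.5% of the counts of the 5 Stat genes in the control-labelled, eKO-labelled and rLif-labelled luminal libraries. In blastocysts the share was 65.4%, 70.5% and 72.8%. *Stat3* was thus the most counted of these 5 Stat genes in every library, and its share varied more in the luminal layer than in blastocysts. The exact binomial 95% intervals of the luminal shares were 75.5 to 77.4%, 55.7 to 58.3% and 82.7 to 84.3%, and did not overlap.

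The Socs gene with the most counts differed between the tissues. Shares of counts are not corrected for gene length. Per length, *Socs1* (91.2 RPKM) stood above *Socs3* (58.2) in blastocysts from rLif-treated mothers. *Socs2* made up 64.7%, 49.1% and 59.4% of the counts of the 4 Socs family genes in the control-labelled, eKO-labelled and rLif-labelled luminal libraries, and 12.8%, 12.3% and 12.2% in blastocysts. *Socs3* made up 21.1%, 4.62% and 28.3% in the luminal layer and 57.8%, 60.8% and 39.8% in blastocysts. In the eKO-labelled luminal library, where the share of *Socs3* was smallest, those of *Cish* (30.7%, against 8.29% in the control-labelled one) and *Socs1* (15.5%, against 5.93%) were larger. In blastocysts from rLif-treated mothers, *Socs1* (30.6%, against 17.5% in control) and *Cish* (17.5%, against 11.8%) took larger shares. The summed level of the 4 genes was 117, 55.4 and 233 RPKM in the luminal libraries and 154, 195 and 200 RPKM in the blastocyst libraries.

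**Figure D3:**
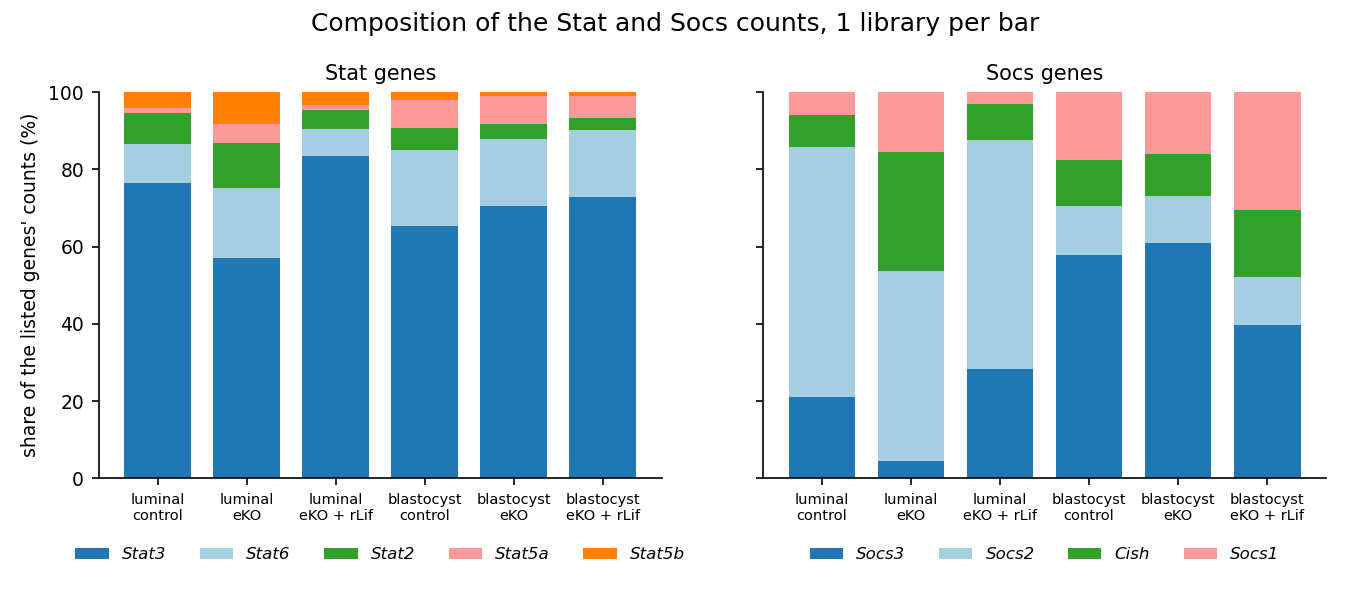
Stacked bars of the share of each gene (%) in the counts of the 5 Stat genes (left) and of the 4 Socs family genes (right), with 1 library per bar and the labelled group below it. *Socs3* shrank to 4.62% in the eKO-labelled luminal library, while the share of *Socs2* in blastocysts stayed between 12.2% and 12.8%.

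The luminal layer and blastocysts were compared group by group, with the 6 libraries scaled together. Tissue, RNA input and amplification cannot be told apart in these ratios. In the control pair 4 of the 9 genes were called, 1 higher and 3 lower in the luminal layer, against 52.1% of 17081 genes (27.0% higher and 25.1% lower). In the eKO pair 4 were called, 1 higher and 3 lower, against 56.8% (28.8% higher and 28.0% lower), and in the rLif pair 5, 2 higher and 3 lower, against 55.6% (29.3% higher and 26.3% lower). The shares of the 9 genes were near those of all genes. *Stat5a* and *Socs1* were called lower in the luminal layer in all 3 pairs, *Stat5a* by 4.79-fold (3.84 to 6.03), 2.46-fold (2.11 to 2.87) and 3.42-fold (2.81 to 4.20), and *Socs1* by 3.51-fold (3.14 to 3.93), 3.78-fold (3.42 to 4.19) and 6.50-fold (5.89 to 7.19). The *Stat5a* call of the eKO pair was lost with size factors of DESeq2 and with upper-quartile scaling, where its log2 ratios were -1.18 and -0.89.

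The paralogs *Stat5a* and *Stat5b* were higher in opposite tissues. *Stat5b* was higher in the luminal layer by 2.13-fold (1.73 to 2.65), 4.92-fold (3.83 to 6.41) and 3.60-fold (2.77 to 4.73) in the control, eKO and rLif pairs, the last 2 called. *Socs2* was 4.25-fold (3.96 to 4.58) and 7.32-fold (6.86 to 7.83) higher in the luminal layer in the control and rLif pairs, but 1.09-fold (1.01 to 1.18) in the eKO pair. *Socs3* was 3.25-fold lower (3.06 to 3.45) in the luminal layer in the control pair and 48.2-fold lower (41.1 to 57.0) in the eKO pair, but 1.07-fold (1.02 to 1.12) in the rLif pair. *Stat3* was not called, at log2 ratios of 0.38 (0.32 to 0.44), -0.97 (-1.04 to -0.91) and 0.39 (0.34 to 0.45), and the eKO value of -0.97 became -1.07 and was called with total counts. *Stat6* was called only in the rLif pair, at 2.21-fold lower (2.01 to 2.44), and this call was lost with size factors of DESeq2 (-1.12) and with upper-quartile scaling (-0.85).

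**Figure D4:**
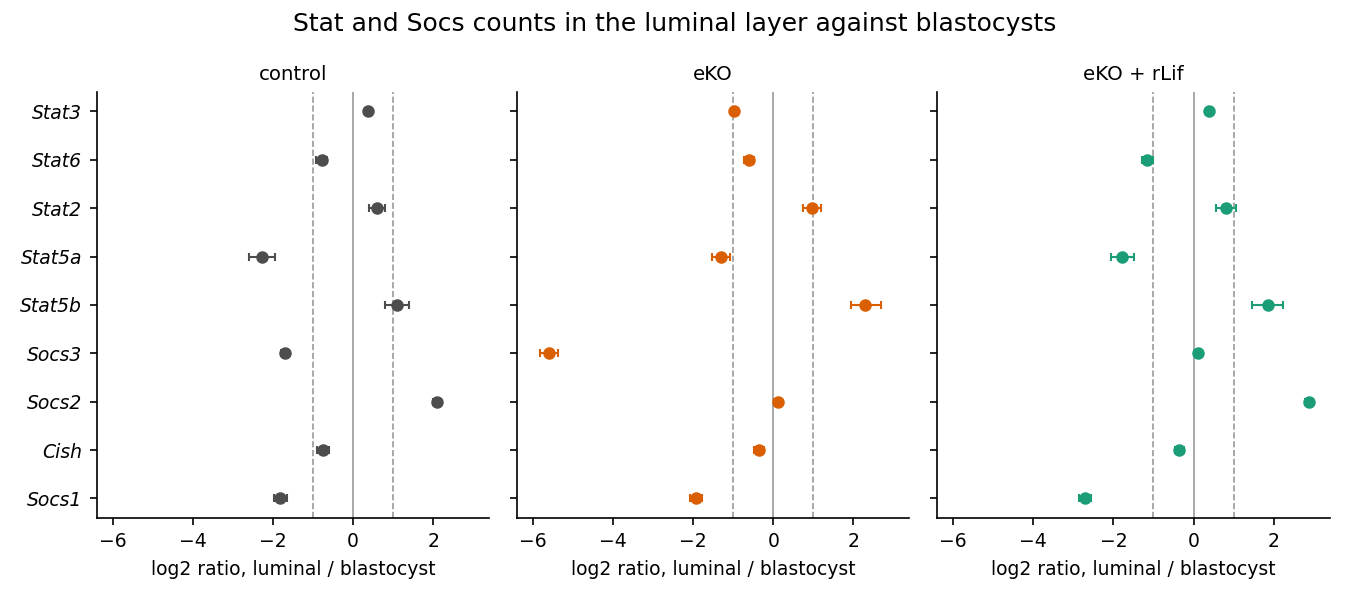
Log2 ratio of the luminal layer to blastocysts for each gene in the control, eKO and rLif pairs, with exact Clopper-Pearson 95% intervals (counting error only) and dashed lines at -1 and 1. *Stat5a* and *Socs1* lie below -1 in all 3 panels, whereas *Socs3* lies at -1.70, -5.59 and 0.10.

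The kinases upstream of the Stat proteins were measured next. Of the 4 Janus kinases, 1 was called higher and 1 lower in the eKO-labelled luminal library against control, where 8.08% of all genes were called higher and 9.15% lower. *Jak2*, the kinase of the growth hormone and prolactin receptors, had 1960, 7134 and 1874 counts in the control-labelled, eKO-labelled and rLif-labelled libraries. It was highest in the eKO-labelled one, at a log2 ratio of 1.68 (1.61 to 1.75) to the control-labelled one, and at -1.79 (-1.86 to -1.71) for eKO with rLif against eKO. *Jak3*, which serves interleukin receptors with the common gamma chain, had 161, 57 and 209 counts and the opposite order, with log2 ratios of -1.68 (-2.15 to -1.24) and 2.02 (1.59 to 2.46). *Jak1*, a principal kinase of gp130, had 5725, 4809 and 8746 counts and was just outside a call for eKO with rLif against eKO (log2 ratio 1.00, 0.95 to 1.06). None of the 4 was called between the rLif-labelled and control-labelled libraries, where 9.16% of all genes were. Nor was any called in blastocysts, where 3.15% to 4.94% of all genes were.

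Of the cytokine receptor chains, 18 of the 20 listed were compared in the luminal layer, and 6 were called lower and 0 higher in the eKO-labelled library against control (median log2 ratio -0.40), beside 9.15% lower and 8.08% higher of all genes (median 0.00). The largest of these were *Il20ra* (1958, 98 and 2116 counts in the control-labelled, eKO-labelled and rLif-labelled libraries), *Osmr*, the oncostatin M receptor (1413, 71 and 4178), and *Il6ra*, the interleukin-6 receptor (268, 40 and 246). Against the eKO-labelled library, the rLif-labelled one had 6 called higher and 1, *Ifngr2*, lower (median 0.50), beside 7.88% and 7.77% of all genes (median -0.01). Against the control-labelled library it had 3 called higher, *Osmr*, *Prlr* and *Il4ra*, beside 4.12% of all genes. In blastocysts 16 were compared, and 1 was called higher for eKO against control (*Ghr*, 10 and 48 counts), beside 1.29% of all genes. For eKO with rLif against eKO, 2 were called lower, *Ifnar2* (107 and 24 counts) and *Prlr* (51 and 9 counts), beside 2.83% of all genes.

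Of the other family members *Stat4* and *Socs4* to *Socs7*, 0 of 5 were called in the luminal layer and 0 of 4 in blastocysts, where *Stat4* was too scarce to be compared. The shares of all genes called were 17.2%, 15.6% and 9.16% in the luminal comparisons and 3.15%, 3.75% and 4.94% in those of blastocysts. With so few genes, 0 calls cannot be told apart from those shares. *Socs6* was nearest to a call, with 763, 406 and 684 luminal counts and a log2 ratio of -1.10 (-1.27 to -0.92) for eKO against control. Of 12 genes for the ubiquitin ligase that Socs proteins recruit and for other brakes of the pathway, *Rnf7*, a ring finger subunit of cullin ligases, was called higher in the eKO-labelled luminal library against control (5137 and 12535 counts), beside 8.08% of all genes. *Pias3*, an inhibitor of Stat3, was called lower for eKO with rLif against eKO (729 and 286 counts), beside 7.77% of all genes. None of the 12 was called in blastocysts, beside the same 3.15%, 3.75% and 4.94% of all genes.

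Genes known as targets of each Stat were counted as lists. Of 19 Stat3 targets compared in the luminal layer, 11 were called lower and 1 higher for eKO against control (median log2 ratio -1.64), beside 9.15% lower and 8.08% higher of all genes (median 0.00). For eKO with rLif against eKO, 13 were called higher and 1 lower (median 1.86), beside 7.88% and 7.77% of all genes (median -0.01). Setting *Fgg*, at 0 in the eKO-labelled library, to the floor of 3 counts left both medians as they were. The strongest were *Fgg*, a fibrinogen chain (153, 0 and 2661 counts), *Lcn2*, an iron-binding acute-phase protein (4200, 110 and 8824 counts), and *Osmr*, which is also among the receptors. *Hif1a* went the other way, with 4950, 13895 and 5270 counts. Against the control-labelled library, the rLif-labelled one had 8 targets called higher and 0 lower, among them *Lrg1* (530 and 1901 counts) and *Timp1* (612 and 2112 counts), beside 4.12% and 5.04% of all genes. These lists were chosen with earlier results of these data known, so their counts are not independent evidence of a direction. In blastocysts, of 17 targets 2 were called higher for eKO against control, *Lcn2* (0 and 64 counts) and *Lrg1* (10 and 46 counts), beside 1.29% of all genes. *Lcn2* (64 and 13 counts) was the 1 target called lower for eKO with rLif against eKO, beside 2.83%.

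Of 18 interferon targets, which depend on Stat2, 5 were called lower and 0 higher in the eKO-labelled luminal library against control (median log2 ratio -0.39), beside 9.15% and 8.08% of all genes (median 0.00). *Gbp2*, an interferon-induced GTPase, had 3179, 128 and 11675 counts in the control-labelled, eKO-labelled and rLif-labelled libraries. *Ifit3* had 6360, 199 and 288 counts and, unlike *Gbp2*, was low in both the eKO-labelled and the rLif-labelled library. In blastocysts, 3 of 17 targets were called higher for eKO against control, beside 1.29% of all genes. For eKO with rLif against eKO, 6 were called lower and 0 higher, beside 2.83% and 0.914% of all genes. The median log2 ratio of the latter was -1.07, or -1.50 with genes at 0 set to the floor of 3 counts in that library. Examples were *Gbp2* with 7, 58 and 2 counts in the control, eKO and rLif libraries, *Ifit2* with 0, 22 and 0, and *Isg15* with 66 and 6 counts in the eKO and rLif libraries. These blastocyst counts were low. The sum of the immune markers was likewise higher in the eKO than in the rLif library (133 and 28.9 CPM), their part in the result not tested.

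The lists for the remaining Stat factors were mixed in direction. Of 10 Stat5 targets in the luminal layer, 2 were called higher and 2 lower for eKO against control, and 2 higher and 4 lower for eKO with rLif against eKO. The shares of all genes were 8.08% higher and 9.15% lower in the first of these comparisons, and 7.88% and 7.77% in the second. *Igf1*, the growth factor induced by Stat5b in liver, had 2697, 9625 and 3487 counts. It was highest in the eKO-labelled library, as were *Stat5a*, *Stat5b* and the sum of the stroma markers. Of 9 Stat6 targets, 2 were called higher and 2 lower for eKO against control, and 3 higher and 2 lower for eKO with rLif against eKO, beside those same shares. *Ccl11*, an eosinophil chemokine, had 12, 127 and 13 counts, and *Arg1*, an arginine-degrading enzyme of alternatively activated macrophages, had 93, 45 and 288. In blastocysts, 2 of 9 Stat5 targets were called lower for eKO against control, *Igf1* (139 and 41 counts) and *Ccnd2* (159 and 60 counts), beside 1.86% of all genes. In the same comparison 0 of 6 Stat6 targets were called, beside 3.15% of all genes in either direction. *Arg1* was the 1 Stat6 target called for eKO with rLif against eKO, higher with 13 and 53 counts, beside 0.914% of all genes.

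Genes with the pattern most like each of the 9 over the 6 libraries were sought among 13599 genes with a mean level of at least 1 CPM. Likeness was the root mean square difference in log2(CPM + 2) after each gene was centred on its own mean. The nearest genes to *Stat3* were *Cdk10* (0.09), *Mul1* (0.10) and *Sdk1* (0.15), and those to *Socs2* were *Las1l* (0.12), *Bzw2* (0.15) and *1810008I18Rik* (0.18). The nearest genes to *Socs3* were farther from it than those of the other 8 genes, *Slc22a5* (0.41), *Sfrp1* (0.42) and *Smpd1* (0.45). *Cish* was nearest to *Akap7* (0.15), *Selrc1* (0.17) and *Unc80* (0.17). *Stat5a* was nearest to *Usp25* (0.04), *Dlg1* (0.05) and *Opa1* (0.06), *Stat5b* to *Gmfg* (0.04), *Antxr2* (0.10) and *Vgll4* (0.11), *Stat6* to *Gpbp1*, *Fxr1* and *Map1s* (0.06 each), and *Stat2* to *D930048N14Rik* (0.05), *Mipol1* and *Flywch1* (0.07 each). *Socs1* was nearest to *Lin28b* (0.10), *E530001F21Rik* (0.11) and *4930548H24Rik* (0.15), which had 0 to 3 counts in the luminal libraries, where *Socs1* had 416 to 515. The added 2 CPM flattens such low values, so that these 3 resemble *Socs1* in their order more than in their range. *1810008I18Rik*, near *Socs2*, had 117, 13 and 212 luminal counts and 0 in every blastocyst library, where *Socs2* had 893 to 1102. *Unc80*, near *Cish*, had 5 to 62 counts. The likeness of both is subject to the same flattening.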

How the data were processed

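The authors isolated the luminal layer by laser microdissection, pooled RNA or blastocysts within each group, and made 1 low-input paired-end library per group. The authors deposited raw read counts, as whole numbers for each gene, in a table for each tissue. HISAT2, featureCounts and Subread 2.0.0 are named in the submitters' processing notes, and the study's text calls the output RPKM although the values are whole numbers. The genome was GRCm38/mm10, and the annotation release, strand setting and treatment of shared reads are not given in the sources used here. Reads shared by paralogs or overlapping genes could thus be split or dropped.

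Groups came from the sample labels. TMM scaling of library sizes (edgeR 4.0.16, R 4.3.3) was done within a tissue, and across the 6 libraries for RPKM, CPM and ratios between tissues. A gene was analysed where the libraries compared held at least 10 counts of it in all. A ratio has an exact Clopper-Pearson 95% interval, and a call needs the whole interval beyond a log2 ratio of 1. Levels have exact Poisson intervals and shares exact binomial ones. PCR copies of a molecule could not be told apart, so reads are not independent and these intervals cover counting error only. A floor of 3 counts stands for 0. The genes named are the 9 members, up to 3 genes per list, direction and comparison with the interval bound farthest from 0, the 3 most alike genes per member, and values just inside and outside the limit. *Jak1*, *Socs6* and the single cell type markers given were named after their values were seen. The 9 members, the lists and the rules were chosen with earlier results of these data known. A listed gene was left out and is not reported here. The tests compared single libraries, and DESeq2 1.42.0 size factors, total counts, upper-quartile scaling, other minimums, other limits and an edgeR exact test were alternatives. Promoter windows were from RefSeq (GRCm38.p6), and stretches of 50 bases shared between GENCODE transcripts stood in for a comparison of proteins, which was not made.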

Additional observations from a re-analysis of the deposited data

Results flagged for a closer look

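*Socs3*, *Socs2*, *Stat3* and *Stat5b* had intervals on opposite sides of 0 in the luminal layer and in blastocysts for the same comparison, which is why they are listed here. With 1 library per group, the difference between the tissues was not tested. For eKO against control, the log2 ratio of *Socs3* was -3.46 in the luminal layer and 0.40 in blastocysts, that of *Socs2* was -1.67 and 0.27, that of *Stat3* was -1.03 and 0.29, and that of *Stat5b* was 0.42 and -0.82. For eKO with rLif against eKO, *Socs3* was at 4.93 and -0.74, and *Socs2* at 2.59 and -0.14. For eKO with rLif against control, *Socs3* was at 1.47 in the luminal layer and -0.34 in blastocysts.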

How the results depend on the processing

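Of 405 recomputed log2 ratios of the 9 genes (9 comparisons, 5 changes of scaling or minimum count), 360 moved by less than counting error and 45 by more. The largest shifts were 0.41 between tissues (upper-quartile scaling) and 0.18 within them. A called direction was reversed 0 times, but a reversal would have needed a shift of more than 1, so this could not come out otherwise. Numbers of called genes depended on the limit. With no limit, 7, 8 and 7 of the 9 genes were called in the luminal layer (eKO against control, eKO with rLif against eKO, eKO with rLif against control), 8, 6 and 6 in blastocysts, and 9, 9 and 9 between tissues. The shares of all genes under that rule were 74.7%, 71.4% and 66.2%, then 44.8%, 52.7% and 52.9%, then 84.2%, 85.6% and 85.3%. With a log2 limit of 2, the luminal comparisons in the same order gave 1, 2 and 0 calls. The tissue pairs gave 0, 1 and 2. The edgeR exact test with a dispersion of 0.1 gave 1, 2 and 0 in the luminal comparisons. Total counts gave 1 for eKO with rLif against control. The shares of all genes called under these alternatives were not computed, so these counts cannot be set against them. Fewer calls at a higher limit follow from the rule, and for the other alternatives the cause was not tested. Total counts shifted the median of all genes by -0.11 and -0.18 in the luminal comparisons with rLif, and upper-quartile scaling by 0.29 to 0.41 between tissues. Of the lists, Stat3 targets had 11 to 12 called lower for eKO against control, 11 to 13 higher for eKO with rLif against eKO and 6 to 8 higher against control over 4 scalings. Cytokine receptor chains had 2 to 3 called higher and 0 to 1 lower in the last, and *Rnf7* lost its call under 1 or more scalings. Leaving out a replicate was not possible with 1 library per group. No paired analysis was possible because each group had 1 library. Depth limits *Stat5b* in blastocysts, with 70 to 122 counts, more than any other of the 9 genes.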
